A study of Caenorhabditis elegans with 2 samples.

Results

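Occupancy by the homeodomain protein IRX-1 was examined at 10 genes that control the G1 phase of the cell cycle in Caenorhabditis elegans. The 10 genes, out of 19973 protein-coding genes in the annotation, were taken by name: the cyclin and kinase genes cyd-1, cdk-4, cye-1 and cdk-2, the kinase inhibitor gene cki-1, the pocket protein and E2F genes lin-35, efl-1 and dpl-1, and the protein degradation genes lin-23 and fzr-1. Peak summits were sought in the promoter window of each gene, which reaches from 1000 bp before the annotated start to 200 bp after it, and in the gene body. The data are peak lists from chromatin immunoprecipitation with sequencing of whole hermaphrodite L1 larvae, collected 6 hours after a synchronization in which bleached animals hatched and were starved. The animals are of strain OP536, which carries unc-119(tm4063) on chromosome III and the transgene wgIs536, so that IRX-1 bears GFP and FLAG at its C-terminus, and an antibody against GFP pulled it down. There is 1 group with 2 biological replicates. No second condition exists, no test between groups could be made, and the counts below are descriptions of these lists.

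G1 is the interval in which a cell either commits to replicate its DNA or stays quiescent. In worms as in other animals, cyclin D with CDK-4 and cyclin E with CDK-2 phosphorylate the retinoblastoma-like protein LIN-35, which otherwise sits with the E2F protein EFL-1 and its partner DPL-1 on S-phase genes and keeps them low. CKI-1, a p27-type inhibitor, restrains the kinases, and the newly hatched larva holds most of its blast cells in G1 until it feeds. LIN-23, an F-box protein, and FZR-1, an activator of the anaphase promoting complex, mark cell cycle proteins for destruction.

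The authors deposited an optimal list of 2445 peaks that passed their threshold on the irreproducible discovery rate (a measure of how well ranks repeat between replicates), a permissive pooled list of 28191 regions, and permissive lists of 30000 regions for replicate 1 and 24949 for replicate 2. The 2445 optimal peaks equal the 2445 highest-scoring pooled regions, with scores of 81.4 to 1185 and a median of 131. Scores are the authors' own, with no stated formula, and are on a different scale in each list, so ranks are given beside them. No read totals are in these files, so the depth is unknown. The permissive lists hold background by design, and a region there that is not optimal is weak signal at most.

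Of the 10 genes, 4 had an optimal promoter summit: efl-1, lin-35, lin-23 and cye-1, in order of score. Among all protein-coding genes the share was 9.6%. The other 6, cyd-1, cdk-4, cdk-2, cki-1, dpl-1 and fzr-1, had no optimal summit in the window or the gene body. The median best score of the 4 genes was 253, beside 149 over the 1917 protein-coding genes that have an optimal promoter summit. In the pooled list, 8 of the 10 had a promoter summit, against 38.1% of all protein-coding genes, and 8 had one in both replicate lists, against 25.6%. In a window from 500 bp before to 100 bp after the start, the optimal count was 2 (efl-1 and lin-35, against 7.68% of all genes), the pooled count 5 (against 26.0%) and the count in both replicate lists 3 (against 16.6%). When a summit counted for its nearest protein-coding gene start only, the optimal count was 2 (efl-1 and lin-23, against 6.83%). With the top 2445 regions of each replicate, 3 genes had a promoter summit in both (against 7.55%). Only dpl-1 and fzr-1 had no pooled summit in window or body, a state shared by 45.4% of all protein-coding genes. The 10 genes were chosen with earlier results of these data known, so these shares are no test of enrichment.

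**Figure D1:**
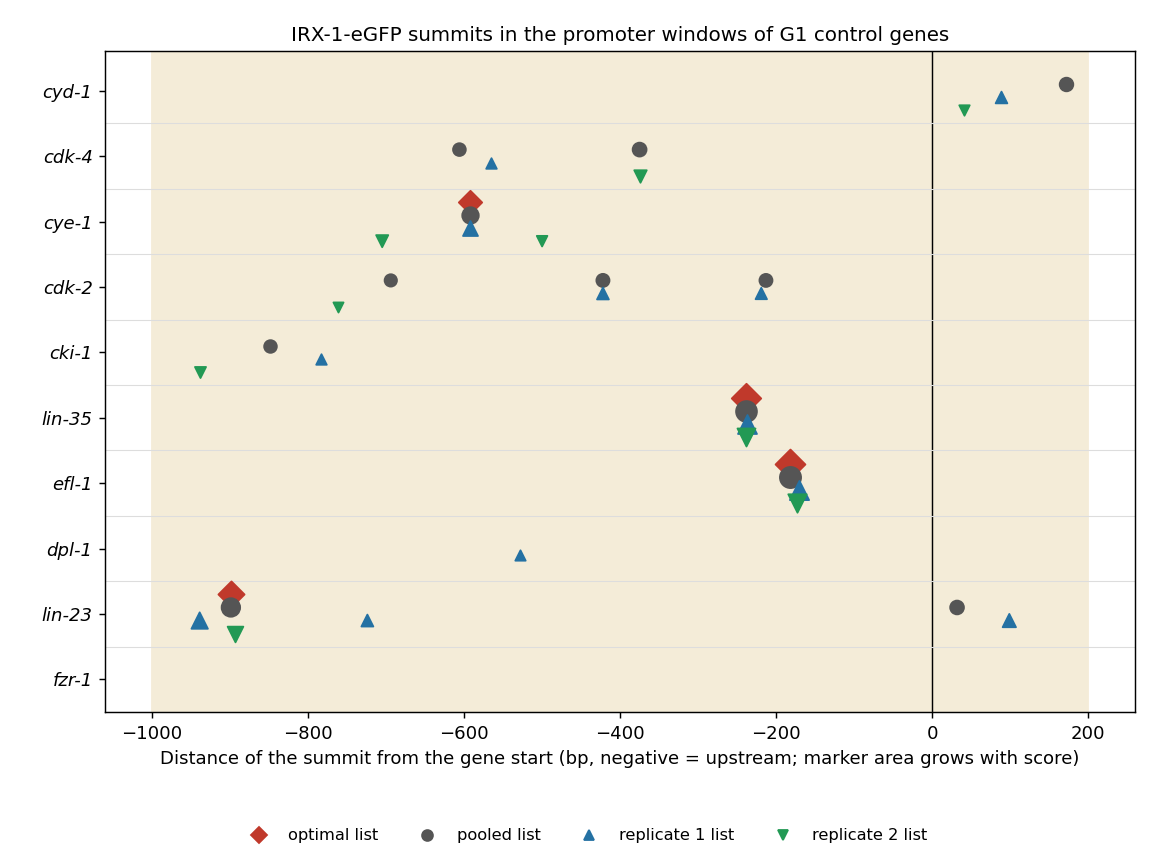
Position of every summit in the promoter window of each gene, in bp from the gene start (negative is upstream), for the optimal, pooled and replicate lists, with a larger marker for a higher score in its own list. At lin-35, efl-1 and lin-23 the best summits of the replicates lie within 45 bp of each other. Those at cdk-4, cdk-2 and cki-1 are 154 bp or more apart. At cyd-1, which has no optimal peak, they are 47 bp apart, and at cye-1, which has optimal peaks, 112 bp.

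The pocket protein gene lin-35 (WBGene00003020, chromosome I, 5807709 to 5815637, plus strand, ce11) had 1 optimal promoter peak, at 5807266 to 5807675. Its summit lies 238 bp upstream of the gene start, in intergenic sequence, with a pooled score of 339 (rank 256). The region scored 190.04 in replicate 1 (rank 255) and 146 in replicate 2 (rank 280), and the summits of the replicates are 1 bp apart. Only 1.31% of protein-coding genes had a higher best pooled promoter score. The same summit lies 180 bp upstream of vps-51, a vesicle tethering gene on the opposite strand, so the peak sits between divergent starts and is nearer to that of vps-51. Inside lin-35, 5 pooled regions with scores up to 37.9 lay below the optimal threshold, 3 of them in coding exons.

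The E2F gene efl-1 (WBGene00001161, chromosome V, 16958590 to 16965675, minus strand) had the highest score of the 10 genes. Its peak (16965769 to 16965923) has its summit 182 bp upstream of the start in intergenic sequence, with a pooled score of 372 (rank 212). It scored 204 in replicate 1 (rank 212) and 164 in replicate 2 (rank 226), with summits 3 bp apart. At 155 bp the peak is narrow: the median optimal width is 410 bp, and 94 optimal peaks (3.84%) are as narrow or narrower. The replicates differ in this width, with a region of 410 bp in replicate 1 and 102 bp in replicate 2. The window of fbxa-90, an F-box gene on the other strand, also holds this summit, 957 bp from its start. No other summit of any of the 4 lists fell in the window or the 7086 bp body of efl-1.

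The gene of its dimer partner, dpl-1 (WBGene00001061, chromosome II, 9169910 to 9172565, plus strand), carried no pooled or optimal summit in window or body. Replicate 1 had a single weak promoter region 528 bp upstream (score 15.5, rank 29341), and replicate 2 had none there but 1 in the gene body (score 14.8, rank 23296). Those ranks are near the bottom of both lists, and the sites are not the same. The nearest optimal summit lies 7409 bp downstream of the dpl-1 start, 19 bp from the start of pir-1, an RNA phosphatase gene. The annotated gene T23G7.2 overlaps the start of dpl-1. The replicate 1 summit lies in T23G7.2 coding sequence, and the replicate 2 summit in dpl-1 coding sequence and a T23G7.2 intron.

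The F-box gene lin-23 (WBGene00003009, chromosome II, 6371303 to 6374776, plus strand) had an optimal peak at 6370199 to 6370608. The summit lies 899 bp before the lin-23 start in intergenic sequence, close to the far edge of the window, with a pooled score of 168 (rank 847). It scored 92.3 in replicate 1 (rank 872) and 75.1 in replicate 2 (rank 856), and the replicate summits are 45 bp apart. No other protein-coding gene has this summit in its window, but the long noncoding RNA gene linc-27 starts 527 bp from it, nearer than lin-23. A weaker pooled summit lies 32 bp inside lin-23, in coding sequence (score 43.7), where replicate 1 has a region (score 38.4, rank 3576) and replicate 2 has no summit nearer to the start than the one 894 bp upstream. The anaphase promoting complex activator gene fzr-1 (WBGene00001510, chromosome II, 9640156 to 9644466, minus strand) had no promoter summit in any list, and 1 weak region of replicate 1 in its body (score 16.7). Its nearest optimal summit, 1766 bp upstream, has a score of 117 and lies 746 bp from the start of sqv-8.

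The sequences of 3 promoter summits are shown. Those of efl-1 and lin-23 share long identical stretches, and cdk-4 holds the highest-scoring pooled promoter region of the 10 genes below the optimal threshold. Only replicate 2 has its cdk-4 summit at that place, and the promoter summit of replicate 1 lies 190 bp away. The summit of lin-35, which scored above that of lin-23, is not shown. Each run is 101 bases centred on the pooled summit, on the strand of the gene, from the RefSeq sequence of WBcel235, which is the ce11 assembly. They lie at chrV:16965807-16965907 (minus strand), chrII:6370354-6370454 (plus strand) and chrX:13519236-13519336 (minus strand). Capitals mark matches to the searched motifs on either strand.
efl-1: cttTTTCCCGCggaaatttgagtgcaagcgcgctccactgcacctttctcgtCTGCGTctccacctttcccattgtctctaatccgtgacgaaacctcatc
lin-23: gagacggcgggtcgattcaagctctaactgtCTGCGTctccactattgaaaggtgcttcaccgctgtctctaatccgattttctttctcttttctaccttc
cdk-4: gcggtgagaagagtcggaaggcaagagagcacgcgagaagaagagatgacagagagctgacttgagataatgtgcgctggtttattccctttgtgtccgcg

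The efl-1 and lin-23 summits share long identical stretches. The longest is GTCTGCGTCTCCAC, of 14 bases, which begins at the summit base of efl-1 and 21 bases before the summit of lin-23 on the gene strand. The next is TGTCTCTAATCCG, of 13 bases, which follows it after 9 bases in efl-1 and 21 bases in lin-23. Within 50 bp of a summit the longer stretch occurs at 7 of 2445 optimal peaks (0.286%) and the shorter at 2, which are efl-1 and lin-23 themselves. The nuclear chromosomes hold the longer stretch 34 times on either strand, 9 of them inside an optimal peak, and the shorter 4 times, 2 of them inside an optimal peak. Among protein-coding promoters from 250 bases before to 50 after the gene start, 0.0501% hold the longer stretch. The summits of lin-35 and cye-1 hold neither. These stretches were picked after the sequences were seen, and they are a description of letters, not of a site.

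Several motifs were searched on both strands: the E2F forms TTTCCCGC, TTTCGCGC, TTTGCCGC and TTTGGCGC, the Iroquois core ACATGT known from mouse, and the motif GAGAGA, the motif CGCGCG and the motif ACGCAG, which earlier results of these data had placed at summits. A form of the E2F site may share bases with CGCGCG, as in cye-1. Within 50 bp of the summit an E2F form was present at efl-1 alone of the 4 promoter peaks, and at 4.46% of all optimal summits. It starts 229 bp upstream of the efl-1 start, near the edge of the searched stretch, and neither replicate summit of efl-1 has it within 50 bp. In the whole promoter window an E2F form was present in 4 of the 10 genes, cyd-1, cye-1, cdk-2 and efl-1, and in 16.5% of all protein-coding genes. ACGCAG lay at the summits of efl-1, lin-23 and cye-1 and at 15.9% of all optimal summits, and in the windows of 6 of the 10 genes, against 23.9% of all. GAGAGA lay at the summits of lin-35 and cye-1, against 26.5% of optimal summits, and in 5 of 10 windows, against 50.9%. CGCGCG lay in the windows of cye-1 and lin-35, against 7.68% of all windows, and at none of the 4 optimal promoter summits, against 5.73% of all optimal summits. The weaker replicate 2 summit 500 bp upstream of cye-1 had both CGCGCG and an E2F form within 50 bp. ACATGT lay in the window of cye-1 only, against 26.9% of all windows, and at none of the 4 promoter summits, against 3.35% of optimal summits. G and C bases made up 52.5% of the 101 bases at efl-1, 47.5% at lin-23, 53.5% at cye-1 and 31.7% at lin-35, where the median over optimal summits was 46.5%.

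The cyclin E gene cye-1 (WBGene00000871, chromosome I, 6780799 to 6784397, plus strand) is the gene of the cyclin and kinase group with optimal peaks, and it has a pair of them. The promoter peak (6780001 to 6780410) has its summit 593 bp upstream, with a pooled score of 94.9 (rank 1921), not far above the lowest optimal score. In replicate 1 it scored 61.1 (rank 1589). In replicate 2 the best region of the window scored 26.96 (rank 5137), with a summit 112 bp away, in the 5' UTR of pqn-21. The promoter peak was thus strong enough for the top 2445 in replicate 1 and not in replicate 2. Of all optimal peaks, 1799 (73.6%) reached the top 2445 of both replicates, 337 (13.8%) that of replicate 1 only, 272 that of replicate 2 only and 37 that of neither. Counting the promoter peak of cye-1, 80 optimal peaks (3.27%) have a replicate 2 region ranked as low or lower, or none. The pooled summit is intergenic and lies only 55 bp from the start of pqn-21, which runs in the opposite direction. It is thus much nearer to that gene than to cye-1. The 417 bp and 647 bp between lin-35 or cye-1 and their divergent neighbours make both peaks shared ones. The efl-1 summit is shared too, since the window of fbxa-90 holds it. Of the 1414 optimal summits in a promoter window, 37.4% lie in the windows of 2 or more genes.

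The other optimal peak of cye-1 (6781583 to 6781992) lies in an intron, 989 bp downstream of the gene start, with a pooled score of 94.7 (rank 1931). It scored 59.7 in replicate 1 (rank 1655) and 20.9 in replicate 2 (rank 10006), and 26 optimal peaks (1.06%), this one included, have a replicate 2 region ranked as low or lower, or none. The summit is 15 bp from a tRNA gene (6781803 to 6781874) that lies in that intron. Summits within 100 bp of a tRNA gene make up 118 (4.83%) of the optimal list, and the part of this tRNA gene in the cye-1 peak was not tested. This is the only one of the 10 genes with an optimal summit in its body, against 2.72% of all protein-coding genes. In the pooled list 5 of 10 had a body summit, cyd-1, cye-1, cdk-2, lin-35 and lin-23, against 36.4%, and the genes are longer than most, with a median of 3955 bp beside 2027 bp over all protein-coding genes.

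**Figure D2:**
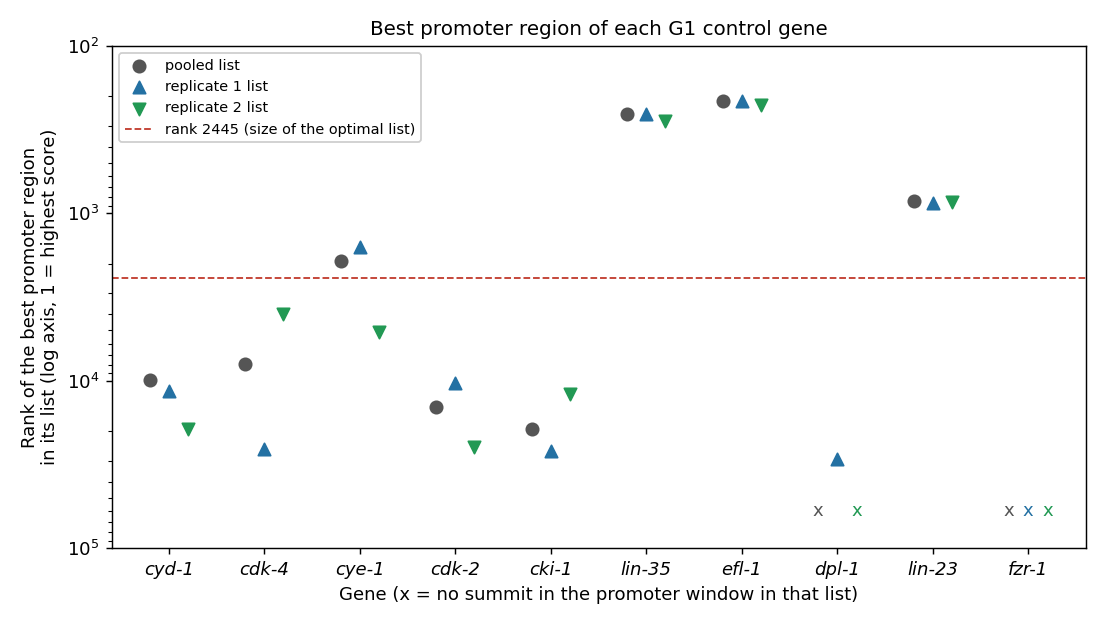
Rank of the best promoter region of each gene in the pooled, replicate 1 and replicate 2 lists (log axis, 1 is the highest score), with an x where the window holds no summit and a dashed line at rank 2445, the size of the optimal list. For lin-35, efl-1 and lin-23 all 3 marks sit together above the line, and for cye-1 the replicate 2 mark (rank 5137) is below it. Those of cyd-1, cdk-4, cdk-2 and cki-1 lie below it in every list. The gene dpl-1 has a rank in replicate 1 only, below the line, and fzr-1 has none.

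The cyclin D gene cyd-1 (WBGene00000870, chromosome II, 12980591 to 12993117, plus strand), whose product starts the G1 program, had a weak pooled promoter summit 172 bp inside the gene, in an intron (score 41.7, rank 9933). The promoter region scored 23.8 in replicate 1 (rank 11498) and 16.04 in replicate 2 (rank 19474). The replicate summits lie 88 and 41 bp inside the gene, both in the 5' UTR and 47 bp apart. The gene spans 12527 bp and holds 3 more pooled regions in introns, with scores up to 41.4. No optimal summit lies within 20 kb of its start. The nearest, 35609 bp upstream, is 15 bp from the start of the snRNA gene sup-6.

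Its partner gene cdk-4 (WBGene00000406, chromosome X, 13515856 to 13518911, minus strand) had pooled promoter summits 375 bp upstream (score 45.4, rank 7969) and 606 bp upstream (score 32.7). The sequence of the stronger is given above. The replicates differed there: replicate 1 had its promoter region 565 bp upstream (score 16.9, rank 25373), and replicate 2 had its own 375 bp upstream (score 30.2, rank 3975), 190 bp apart. Both pooled summits also lie in the window of F18H3.1, which runs divergently from cdk-4. The nearest optimal summit, with a score of 483, lies 4303 bp downstream of the gene start, beyond the 3' end of cdk-4.

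The kinase gene cdk-2 (WBGene00019362, chromosome I, 3410013 to 3416368, plus strand), which acts with cyclin E, had 3 pooled promoter summits at 694, 422 and 213 bp upstream, with a highest score of 36.1 (rank 14272). In replicate 1 the best scored 24.9 (rank 10238), and in replicate 2 the best scored 14.3 (rank 24811), with summits 340 bp apart. Its 4 pooled body regions scored up to 44.96, and 1 of them lies in coding sequence that the antisense RNA gene anr-45 overlaps. No optimal summit lies within 20 kb, a state shared by 43.9% of protein-coding genes.

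The inhibitor gene cki-1 (WBGene00000516, chromosome II, 7811240 to 7812105, plus strand), which holds blast cells in G1, had a pooled promoter summit 849 bp upstream (score 31.8, rank 19345). It scored 16.6 in replicate 1 (rank 26082) and 19.6 in replicate 2 (rank 11984), with summits 154 bp apart. None of these regions is near the optimal threshold. The closest optimal summit lies 1939 bp upstream of cki-1, outside the window, with a score of 89.3. No other protein-coding gene start is nearer to it, and it lies in an exon of the noncoding RNA gene T05A6.15.

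The replicates placed their best promoter summits closest together at lin-35 and efl-1. The distance between the best promoter summits of the replicates was 1, 3, 45 and 112 bp at lin-35, efl-1, lin-23 and cye-1, and 47, 154, 190 and 340 bp at cyd-1, cki-1, cdk-4 and cdk-2. Over protein-coding genes with a promoter summit in both lists, the median was 17 bp for the 1908 with an optimal summit and 97 bp for the 3206 without. The regions of the replicates overlapped in 4 of the 4 G1 genes with an optimal summit, against 99.2% of the 1908 genes, and in 4 of the 4 without one, against 83.9% of the 3206. The median best pooled score of the 4 genes with a pooled but no optimal promoter summit was 38.9, close to the 38.2 over all 5697 such genes. Replicate regions also entered the choice of the optimal list, so this agreement is no independent support for it.

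**Figure D3:**
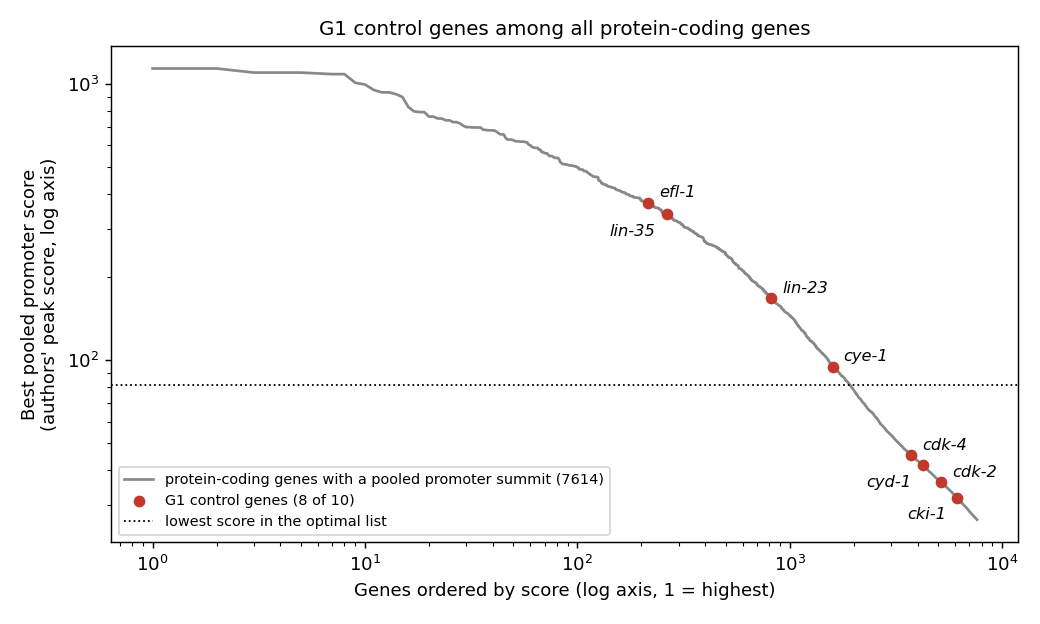
Best pooled promoter score of each protein-coding gene that has one (7614 genes, grey line) in order of score, on log axes, with the G1 control genes as points and the lowest optimal score as a dotted line. The points efl-1 (372), lin-35 (339), lin-23 (168) and cye-1 (94.9) lie above that line, and cdk-4, cyd-1, cdk-2 and cki-1 lie between 45.4 and 31.8.

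Other genes of the cell cycle were set beside the G1 genes as counts of optimal promoter summits, with no test. Of 7 Rb and DREAM complex genes, which act with LIN-35 and EFL-1, 4 had one, with a median score of 473. The highest were lin-54, a DNA-binding subunit (score 728, shared with the window of rpl-12), lin-9 (553) and lin-53, a histone-binding protein (393, shared with nra-2). The remaining one, lin-36, scored 181. Of 18 replication and S-phase genes 7 had one, but with a median score of 98.0: pcn-1, the PCNA sliding clamp, scored 707, and cdc-6, a loader of the replicative helicase, scored 363 in a window shared with acin-1. The summit of orc-5, of the origin recognition complex (167), is also that of the cyclin B gene cyb-1. The other 4, gmn-1, mcm-4, mcm-7 and mcm-2, scored 98.0, 96.2, 88.1 and 83.01. The gmn-1 summit, 965 bp upstream, is shared with the windows of Y75B8A.18 and Y75B8A.19, and that of mcm-7 with those of figl-1 and hpo-18. Of 9 other cyclin, kinase and inhibitor genes 2 had one, cyb-1 (167) and cdk-7 (165). Of 16 genes of SCF and the anaphase promoting complex 2 did, gfi-3 (194) and sel-10, an F-box gene (162), and of 7 CDC25, WEE1 and CDC14 genes 1 did, wee-1.3 (156). The share was 40.0% for the G1 genes, against 57.1%, 38.9%, 22.2%, 12.5% and 14.3% for these lists in that order and 9.6% for all protein-coding genes. Pooled promoter summits were present at 80.0% of the G1 genes, against 85.7%, 94.4%, 55.6%, 43.8% and 28.6% of the lists in the same order. The lists are small, no other factor or untagged strain was analysed here, and whether the signal at these promoters is particular to IRX-1 was not tested.

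**Figure D4:**
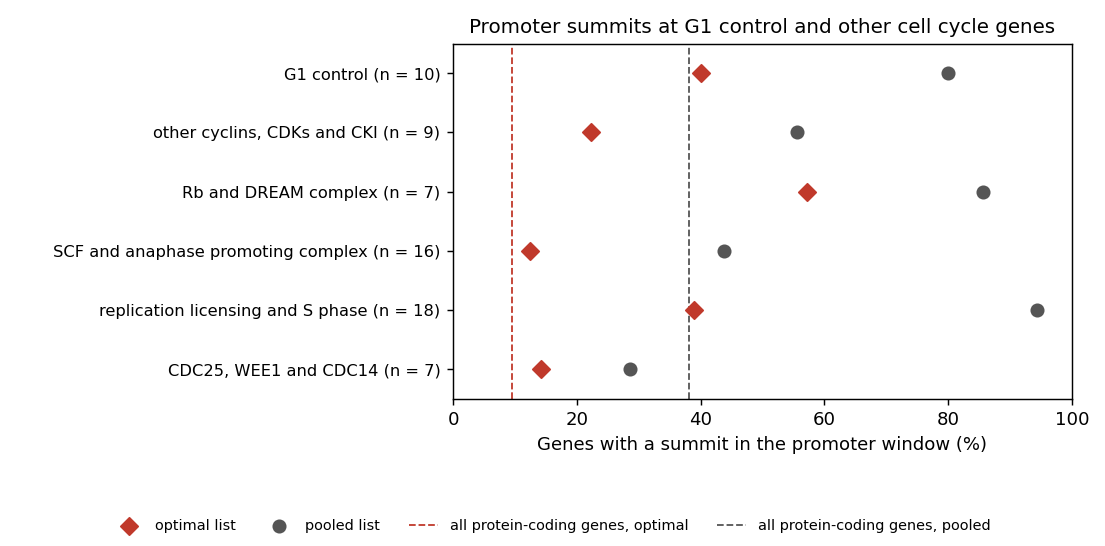
Share of genes (%) with an optimal (diamonds) or pooled (circles) summit in the promoter window, for the G1 control genes at the top and 5 lists of other cell cycle genes below, with dashed lines at the shares of all protein-coding genes (9.6% and 38.1%). The G1 genes stand at 40.0% and 80.0%, and the optimal share is highest, 57.1%, for the 7 Rb and DREAM complex genes.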

How the data were processed

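The authors deposited peak lists on ce11 in narrowPeak form, made from alignments and a control file, as the notes deposited with the samples state. The sources used here do not give the caller, the aligner or the cutoff. The deposited peak score (column 7) and the deposited −log10 q value (column 9) were used as they stand, with no count model, since the files hold no counts. Lists on ce10 were not used here.

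A summit is the region start plus the summit offset, written as a 1-based position. Gene starts came from Ensembl release 115 on WBcel235, the assembly of ce11, over 19973 nuclear protein-coding genes, in Python 3.11.15 with pandas 2.3.3. All peak ends lay within the chromosome lengths of the RefSeq sequence. The window counts were checked on simulated summits. The members, lists and motifs were chosen with earlier results of these data known. Of the other cell cycle genes, cdc-45 matched no symbol. Named were all 10 members, protein-coding genes whose windows hold their optimal promoter summits, and the 3 highest-scoring occupied genes of each list. The remaining occupied genes of the lists and the genes near other summits were named after their values were seen. Alternatives changed the window, the threshold, the ranking, the assignment and the replicate used.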

Additional observations from a re-analysis of the deposited data

How the results depend on the processing

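Of 24 alternative counts, 16 stayed within 1.5 times the value given and 8 did not. The 4 genes with an optimal promoter summit (against 9.6% of all protein-coding genes) became 2 (efl-1 and lin-35, against 7.68%) in a window from 500 bp before to 100 bp after the gene start, and 2 (efl-1 and lin-23, against 6.83%) when a summit counted for the nearest protein-coding gene start only, since the starts of vps-51 and pqn-21 are nearer at lin-35 and cye-1. In a window from 2000 bp before to 500 bp after it they were 6 (against 12.4%), with cki-1 and fzr-1 added. Leaving out a replicate gave 3 to 4 (against 9.24% and 9.31%), and cye-1 was the gene lost without replicate 1. Here the highest-scoring regions of the remaining replicate stood in for the optimal list, which was not remade. Among the 1222 highest-scoring peaks 3 were left (against 5.60%), without cye-1. The gene with an optimal summit in its body, cye-1, was lost among those 1222 peaks (0, against 1.26%) and when summits at tRNA genes were left out (0, against 2.46%), an alternative chosen after seeing the data. Leaving out a replicate in the same way gave 0 to 1 (against 2.81% and 2.72%). The 8 genes with a pooled promoter summit became 5 (against 26.0%) in the narrower window. The 8 with one in both replicate lists became 3 (against 16.6%) in that window and 3 (against 7.55%) with the top 2445 regions of each replicate. They were 8 to 9 (against 35.3% and 39.4%) when a replicate was left out and the whole list of the other was used. No paired analysis was possible because there is only 1 group. The unknown depth limits what is said of weak regions, and a gene with no summit may have signal below the level of these lists.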
